A study of Caenorhabditis elegans with 2 samples.

Results

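The genes described here encode the proteins of the cytosolic ribosome of Caenorhabditis elegans, examined in peak lists from ChIP-seq (sequencing of immunoprecipitated chromatin) of the transcription factor SPTF-2. Members were the protein-coding genes whose symbol begins with rpl- or rps- and a number, together with rla-0, rla-1 and rla-2, in the Ensembl annotation of assembly WBcel235. This gave 81 of the 19973 nuclear protein-coding genes, 50 for the large subunit (rpl and rla) and 31 for the small subunit (rps). The choice by symbol leaves out ubq-2 and ubl-1, which encode a ribosomal protein fused to ubiquitin or to a ubiquitin-like protein. Worms of strain OP769 carried the unc-119 allele tm4063 and the transgene wgls769, which holds sptf-2 tagged with TY1, EGFP and 3xFLAG beside a functional copy of unc-119. Mixed-sex young adults were collected at 64.5 h, from cultures synchronised as starved L1 larvae after bleaching, and whole animals were used, so signals of all tissues are mixed. The series holds 1 group with 2 biological replicates, precipitated with an antibody to GFP. It has no second condition, and untagged worms are not part of the lists used here.

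Each ribosome has a large subunit, which joins amino acids, and a small subunit, which reads the messenger RNA, and their proteins are needed in about equal numbers. Ribosomal protein genes are among the most strongly transcribed genes of growing animals. In C. elegans many of their transcripts are trans-spliced, which means that the first stretch of the primary transcript, the outron, is cut off at a splice acceptor and replaced with a short spliced leader. The start annotated for such a gene is then often the splice acceptor, and transcription begins at some distance upstream of it. SPTF-2 belongs to the Sp family of zinc finger factors, and Sp proteins of mammals recognise GC boxes, whose core is GGGCGG.

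The DNA under 5 upstream optimal summits is shown first, among them those of rpl-15, rpl-3 and rpl-35, the 3 members of highest pooled signal. The windows of rpl-26, rps-26 and rpl-31, which were stronger than that of rps-23, are not shown. A summit is the base within a peak that the peak caller marked. The pooled peak of rpl-3 was III:3867519-3867615, so its printed window reaches past the end of the peak. The windows of 141 bp are centred on the summit of the pooled list, read along the strand of the gene, in ce11 coordinates. They are at IV:654836-654976 (minus strand) for rpl-15, III:3867521-3867661 (plus) for rpl-3, III:7854625-7854765 (plus) for rpl-35, IV:4750003-4750143 (minus) for rpl-20 and IV:12391300-12391440 (minus) for rps-23. Capitals mark 4 elements that were picked by eye from these windows after their values were seen, and CCACGCCC, which was among 8 motifs listed for this work. The picked elements are AGCGTGTT and GGCCTAAA, together with the shorter CTACGGT and, near the summit of rpl-15, GAGTGTA. All were searched on either strand, and the sequence is that of the RefSeq copy of the assembly.
rpl-15: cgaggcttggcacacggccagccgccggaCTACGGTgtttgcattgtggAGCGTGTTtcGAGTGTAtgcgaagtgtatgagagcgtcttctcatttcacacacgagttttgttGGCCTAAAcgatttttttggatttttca
rpl-3: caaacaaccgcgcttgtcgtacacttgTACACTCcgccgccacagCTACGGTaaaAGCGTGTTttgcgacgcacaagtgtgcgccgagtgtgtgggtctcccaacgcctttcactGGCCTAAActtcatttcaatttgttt
rpl-35: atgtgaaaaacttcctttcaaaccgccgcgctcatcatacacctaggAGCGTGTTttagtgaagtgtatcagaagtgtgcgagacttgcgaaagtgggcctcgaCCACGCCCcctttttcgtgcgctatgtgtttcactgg
rpl-20: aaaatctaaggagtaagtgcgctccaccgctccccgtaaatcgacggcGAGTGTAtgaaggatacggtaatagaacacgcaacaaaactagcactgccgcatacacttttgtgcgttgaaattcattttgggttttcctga
rps-23: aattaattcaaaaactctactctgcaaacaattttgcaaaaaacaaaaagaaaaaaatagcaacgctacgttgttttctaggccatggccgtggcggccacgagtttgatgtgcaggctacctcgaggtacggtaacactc

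All 4 picked elements stood in the windows of rpl-15 and rpl-3, 1 of them in that of rpl-35, 1 in that of rpl-20 and none in that of rps-23. AGCGTGTT began 21 bp before the summit at rpl-15, 15 bp before it at rpl-3 and 23 bp before it at rpl-35. GGCCTAAA began 43 bp after the summit at rpl-15 and 45 bp after it at rpl-3, where it lay outside the called peak. GAGTGTA was read along the gene at rpl-15 and rpl-20 and as its reverse complement at rpl-3. At rpl-35, CCACGCCC began 34 bp after the summit.

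The stretch just before the annotated start is shown for rpl-15, rpl-3, rpl-35, rpl-20 and rps-25, because it bears on what a distance from the start means. The 30 bases run from 24 before to 6 from the start onward. They are IV:654571-654600 (minus) for rpl-15, III:3867830-3867859 (plus) for rpl-3, III:7855110-7855139 (plus) for rpl-35, IV:4749773-4749802 (minus) for rpl-20 and IV:5947600-5947629 (minus) for rps-25. Capitals mark TTTCAG, the consensus splice acceptor of C. elegans, or its last AG where the rest differs.
rpl-15: ttattctaaccttttttcTTTCAGaaaaca
rpl-3: tttcgtaaaattaatattTTTCAGggtaca
rpl-35: tttttaagcaatctcattattcAGggttac
rpl-20: ttgcatcatatttttgttTTTCAGggttaa
rps-25: ttctcatatgaattgtctttacAGgtaaaa

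In 40 of the 81 members (49.4%) the acceptor TTTCAG ended at the base before the outermost annotated start, against 12.3% of all protein-coding genes. AG alone stood there in 69 members (85.2%), 41 of the large and 28 of the small subunit, against 27.6% of all genes. The median distance from the annotated start to the start codon was 8 bp in members and 15 bp over all genes, and 62 of 81 members had 20 bp or less. The dinucleotide AG that ends a splice acceptor was thus missing at 12 members. No value here shows where transcription begins, and the positions given below are distances from the annotated start.

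At every cutoff by strength, ribosomal protein genes held summits more often than protein-coding genes at large. Each gene was given its strongest summit within 500 bp of any of its annotated starts, and called when it had one. In the submitters' optimal set of 407 peaks, thresholded on how well ranks repeat between the replicates, 18 of 81 members (22.2%) were called, against 0.936% of all protein-coding genes. These 407 were also the strongest 407 of the 30000 pooled peaks. With the strongest 1000 pooled peaks 28 members (34.6%) were called against 2.19%, with the strongest 3000 it was 49 (60.5%) against 5.57%, and with the strongest 10000 it was 61 (75.3%) against 15.7%. The whole pooled list called 73 members (90.1%) against 36.9%. The replicates gave like counts. Among the 407 strongest peaks of each list, 17 members (21.0%) were called in replicate 1, against 0.986% of all genes, and 21 (25.9%) in replicate 2, against 0.841%. Any peak of the list called 72 members in replicate 1 (88.9%, against 36.6%) and 70 in replicate 2 (86.4%, against 36.8%).

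Ribosomal protein genes are short, with a median length of 754 bp and a range from 276 to 1734 bp. Among the 8382 protein-coding genes no longer than the longest member, the optimal set called 0.895% and the pooled list 33.6%, close to the shares of all genes. A pooled summit lay inside the gene record of 65 members (80.2%) and of 34.3% of these short genes. No test was run on these shares, since the study has 1 group and genes are not replicates.

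**Figure D1:**
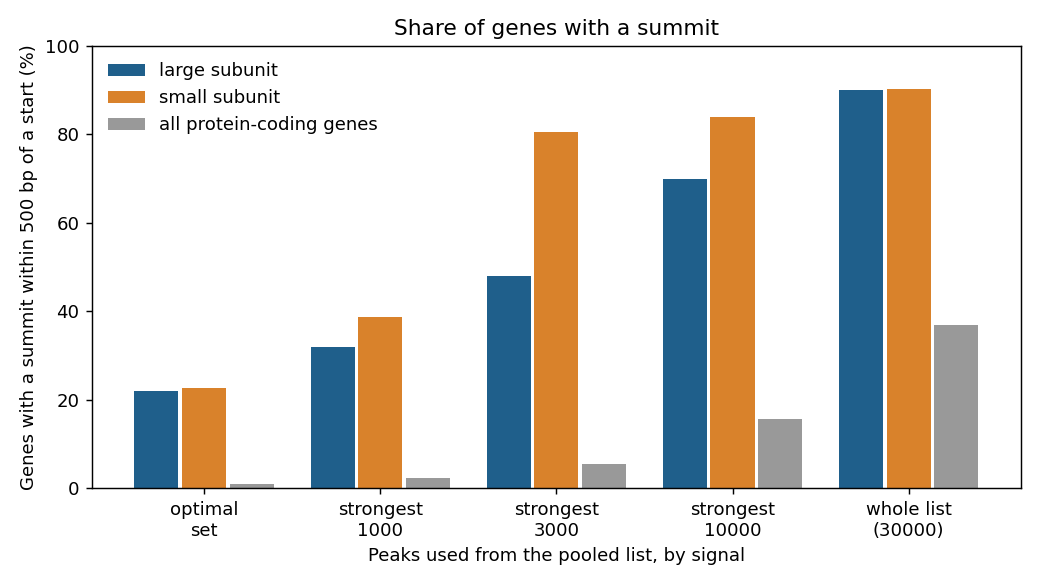
Percentage of genes with a summit within 500 bp of an annotated start, for the optimal set and for the pooled peaks by strength; bars stand for the 50 large subunit genes, the 31 small subunit genes and all 19973 protein-coding genes. Both subunits stand above the grey bars at every step, and the subunits are furthest apart at the strongest 3000 peaks, with 48.0% of large and 80.6% of small subunit genes.

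The 2 subunits differed most in the middle of the pooled list. In the optimal set 11 of 50 large subunit genes (22%) and 7 of 31 small subunit genes (22.6%) were called, and in the whole pooled list 45 (90%) and 28 (90.3%). Among the strongest 3000 pooled peaks the counts were 24 large (48.0%) and 25 small (80.6%). The strongest 407 peaks of replicate 1 called 18% of large and 25.8% of small subunit genes, and those of replicate 2 called 26% and 25.8%. The whole list called 88% and 90.3% in replicate 1, and 80% (40 of 50) and 96.8% (30 of 31) in replicate 2, so at the end of the list the subunits were apart in replicate 2. The signal value, a score in the units of the peak caller that is used here only within a list, had a median of 67.1 over the 73 members with a pooled summit and of 40.0 over the 7365 protein-coding genes with one. The median was 58.6 in the large and 71.4 in the small subunit, a difference of -0.28 on the log2 scale (large minus small). In replicate 1 the medians were 33.0 and 42.4 (-0.36 on the log2 scale), and in replicate 2 they were 36.9 and 38.6 (-0.07). The small subunit median was thus higher in both replicates, but hardly so in replicate 2. The ranges overlapped widely, from 30.3 to 208 in the large and from 38.7 to 153 in the small subunit. Among optimal members the order was the other way, with medians of 136 for the large and 103 for the small subunit.

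**Figure D2:**
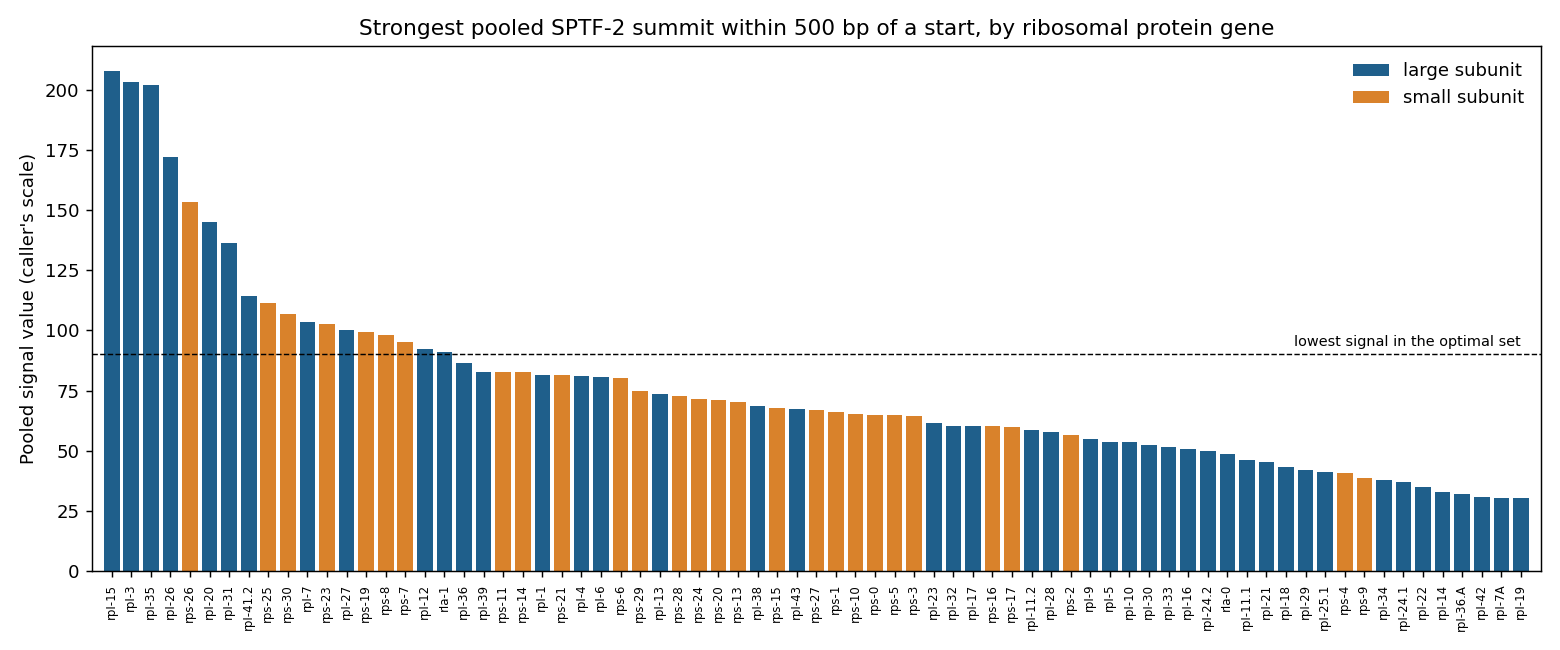
Pooled signal value of the strongest summit at each of the 73 ribosomal protein genes that have one, sorted from high to low and coloured by subunit; the dashed line is the lowest signal in the optimal set, 90.4. The 4 highest bars are large subunit genes, the small subunit genes gather in the middle, and the 8 lowest bars are large subunit genes.

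Large subunit genes held the top of the family. rpl-15, a core protein of the large subunit (IV:653480-654576, minus strand), had the highest value, with a pooled signal of 208 at rank 18 of 30000. It had a signal of 116 at rank 22 in replicate 1 and of 79.8 at rank 31 in replicate 2. Its summit lay 330 bp upstream of the start in the pooled list, and 354 and 290 bp upstream in replicates 1 and 2. The gene rpl-3 encodes a protein that reaches toward the site where amino acids are joined (III:3867854-3869587, plus strand). It had a pooled signal of 203 at rank 19, a signal of 123 at rank 18 in replicate 1 and of 81.3 at rank 27 in replicate 2. Its summit was at the same base in all 3 lists, 263 bp upstream. rpl-35, whose protein lies near the exit of the tunnel for the new chain (III:7855134-7855646, plus strand), had a pooled signal of 202 at rank 20. Replicate 1 gave it 132 at rank 15 and replicate 2 gave it 62.4 at rank 102, with summits 439 and 440 bp upstream. These are the 3 summits with AGCGTGTT in the windows printed above.

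The next large subunit genes were less uniform in position. rpl-26, another protein near the tunnel exit (II:8602785-8603581, plus strand), had a pooled signal of 172 at rank 34, with ranks of 17 and 26 in replicates 1 and 2. Its pooled summit lay 25 bp upstream of the start, the summit of replicate 1 lay 86 bp upstream and that of replicate 2 lay 101 bp downstream, so the replicates differed in side. rpl-20 (IV:4749123-4749778, minus strand) had a pooled signal of 145 at rank 67, and ranks of 110 and 50 in the replicates. Its summits lay 295 to 299 bp upstream in the 3 lists. rpl-31, also at the tunnel exit (I:13652949-13653704, minus strand), had a pooled signal of 136 at rank 83 and ranks of 125 and 96. Its pooled summit was 217 bp upstream of an inner start and lay in an intron of the gene record, and the replicate summits fell nearest to the outermost start, 244 and 249 bp downstream of it.

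**Figure D3:**
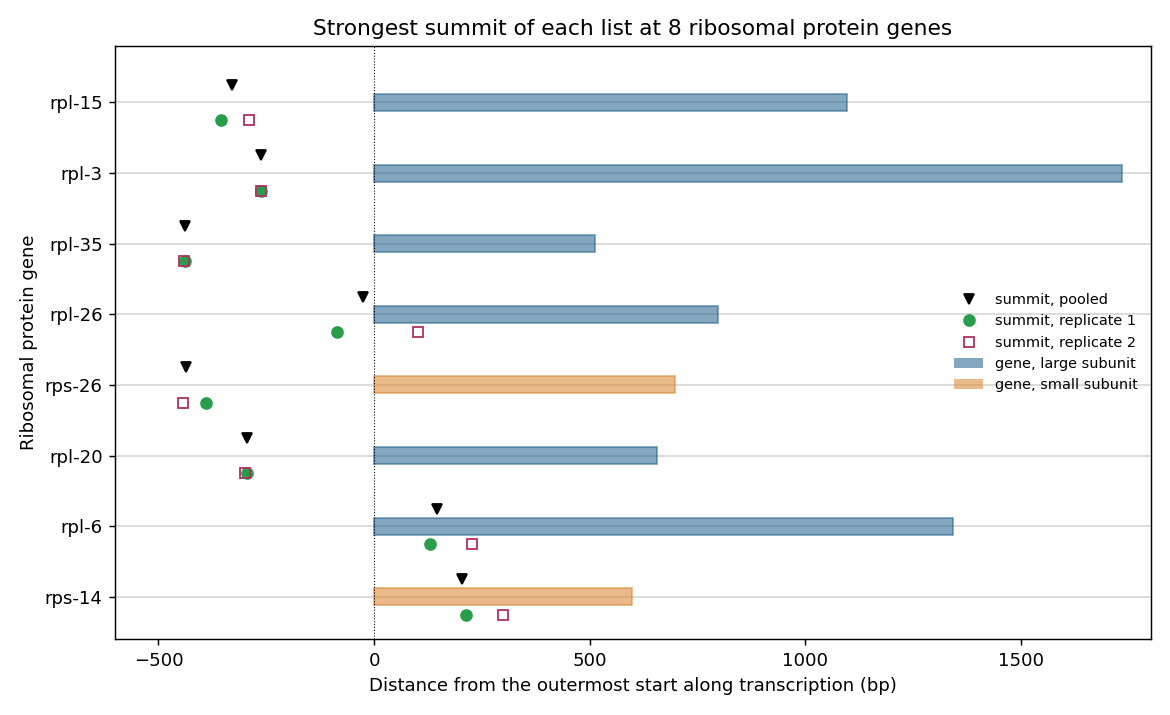
Position of the strongest summit in the pooled list (triangles), replicate 1 (circles) and replicate 2 (open squares) at 8 ribosomal protein genes, in bp from the outermost annotated start along transcription; boxes span the gene. The summits of rpl-15, rpl-3, rpl-35, rps-26 and rpl-20 lie 263 to 442 bp upstream, those of rpl-26 on either side of the start, and those of rpl-6 and rps-14 inside the gene.

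The remaining optimal members of the large subunit had pooled signals from 90.9 to 114. rpl-41.2, for the smallest protein of the ribosome, had 114 (ranks 128 and 170 in replicates 1 and 2), with its summit 272 bp downstream of the start of a gene of 351 bp. rpl-7 had 103, and its rank was 1335 in replicate 1 and 76 in replicate 2. rpl-27 had 100.03, at ranks 762 and 164. rpl-12, for a protein at the base of the stalk that binds elongation factors, had 92.2, at ranks 166 and 454. rla-1, for an acidic protein of the stalk itself, had 90.9, at ranks 1989 and 188, with summits 14 to 31 bp upstream in the 3 lists. Of these 5 genes only rpl-41.2 ranked within 407 in both replicates.

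In the small subunit rps-26 led, for a protein at the exit of the messenger RNA channel (I:14759930-14760626, plus strand). It had a pooled signal of 153 at rank 52, a signal of 79.5 at rank 80 in replicate 1 and of 67.6 at rank 69 in replicate 2, with summits 389 to 442 bp upstream. This summit lay 22 bp from the start of tmem-107, on the other strand. rps-25 (IV:5947093-5947605, minus strand) had a pooled signal of 111 and ranks of 237 and 327, with its summits 294 to 349 bp downstream. rps-30, whose protein is made fused to a ubiquitin-like protein (V:7776578-7777225, plus strand), had 107 and ranks of 300 and 801, with summits 366 to 377 bp downstream. rps-23, for a protein of the decoding centre (IV:12390298-12391053, minus strand), had 103 and ranks of 495 and 320, with summits 266 to 326 bp upstream. rps-19, needed in mammals to mature the small subunit RNA, had 99.4 and ranks of 963 and 161, upstream in all 3 lists. rps-8 had 98.0, at ranks 581 and 276, and rps-7 had 95.0, at ranks 286 and 537. Of these 7 genes rps-26 and rps-25 were among the 407 strongest of both replicates.

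At the boundary of the optimal set the values ran on without a gap. Just inside it stood rpl-12 (92.2) and rla-1 (90.9), and just outside stood rpl-36 (86.4, rank 495), rpl-39 (82.8, rank 597), rps-11 (82.7) and rps-14 (82.7). The lowest large subunit genes were rpl-19 (30.3), rpl-7A (30.5), rpl-42 (30.8), rpl-36.A (31.98) and rpl-14 (32.9), near the lowest value of the pooled list, 27.8. The lowest small subunit genes were rps-9 (38.7), rps-4 (40.9), rps-2 (56.5), rps-17 (60.0) and rps-16 (60.2). Of these 5, rps-17 and rps-16 were above the median of the large subunit.

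No pooled summit lay within 500 bp of a start at 8 members. These were rpl-2, rpl-37, rpl-25.2, rpl-41.1 and rla-2 of the large subunit and rps-12, rps-18 and rps-22 of the small subunit. rpl-2 and rpl-37 had none in any list. rpl-25.2 and rpl-41.1 had one in each replicate, and rpl-25.2 stood at rank 1053 in replicate 2 with a signal of 38.7 and at rank 7085 in replicate 1. rla-2, rps-12 and rps-22 had one in replicate 2 alone, at ranks 12081, 9692 and 29430, and rps-18 in replicate 1 alone, at rank 17109. A missing summit says that no peak of the list lay in the window, and the lists of 30000 appear to stop at a fixed number.

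Genes with paired names had unequal values. Of rpl-41.1 and rpl-41.2, which lie in tandem with starts 1102 bp apart, only rpl-41.2 had a pooled summit (114). rpl-11.2 had 58.6 at 495 bp upstream and rpl-11.1 had 46.4 near an inner start. rpl-24.2 had 50.1, with summits 1 to 12 bp upstream of the start in all 3 lists, and rpl-24.1 had 36.9 at 228 bp downstream. rpl-25.1 had 41.3 and rpl-25.2 no pooled summit. The names rpl-7 (103) and rpl-7A (30.5), and rpl-36 (86.4) and rpl-36.A (31.98), share a stem, but in mammals these names stand for unrelated proteins.

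Across all members the summit lay downstream of the annotated start more often than upstream. Positions were taken from the nearest start of the gene along the direction of transcription, with negative values upstream. The median position of the 73 pooled summits was 114 bp downstream, with 28 upstream (38.4%) and 45 downstream, whereas the median over all protein-coding genes was 3 bp downstream with 49.8% upstream. Among short genes the share upstream was 45.2%. The share in members was 38.9% in replicate 1 (28 of 72) and 37.1% in replicate 2 (26 of 70), against 50.9% and 48.0% of all genes in those lists. Within 150 bp of the start lay 18 of 73 pooled summits (24.7%), against 35.0% over all genes. The shares were 27.8% against 35.4% in replicate 1 and 30% against 34.7% in replicate 2, and 32.2% of the pooled summits of short genes were that close. The gap was thus smaller in the single replicates, and smallest in replicate 2. By the outermost start of each gene record, 26 summits were upstream, 29 in an exon, 16 in an intron and 2 past the end of the gene (rpl-43 and rpl-32). The difference from 28 upstream is rpl-31 and rpl-11.1, whose summits were upstream of an inner start alone.

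**Figure D4:**
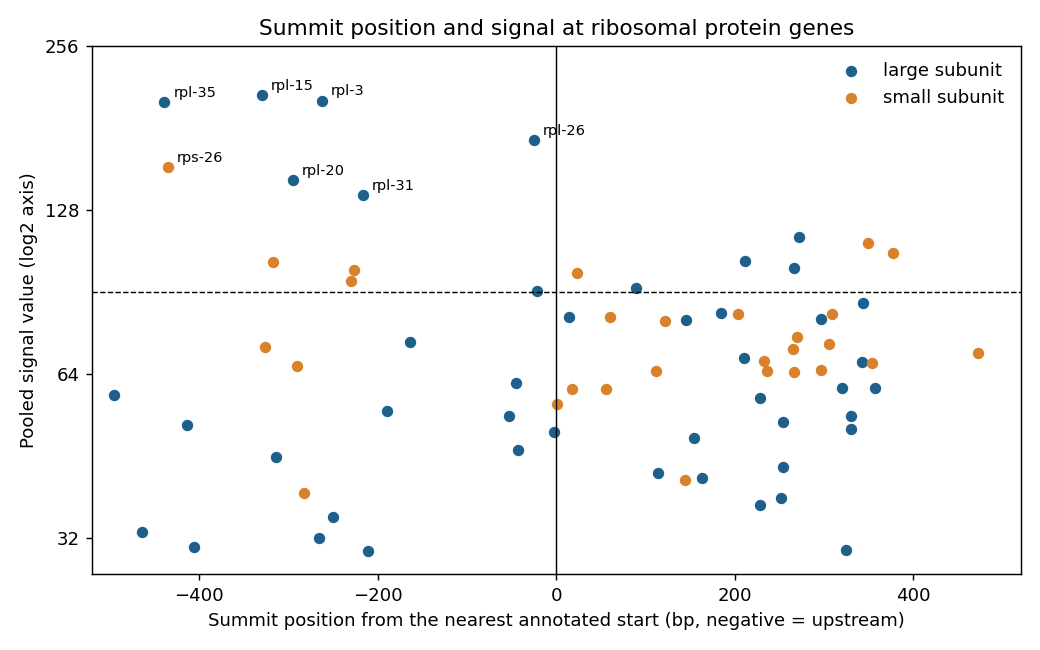
Pooled signal value (log2 axis) against summit position from the nearest annotated start (bp, negative is upstream) for the 73 ribosomal protein genes with a pooled summit, coloured by subunit; the dashed line is the lowest signal of the optimal set. The 7 highest points are upstream, while the points just under the dashed line lie mostly downstream.

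In the pooled list members among the strongest 407 peaks were mostly upstream and those just below them mostly downstream. In neither replicate were most members among the strongest 407 upstream. The best-ranked members of replicate 1, from rpl-35 (rank 15) to rpl-20 (rank 110), were nevertheless all upstream. In replicate 2 the best-ranked member, rpl-26 (rank 26), was downstream. In the optimal set 11 of 18 members were upstream (61.1%), against 70.1% of all 187 genes called there, and the 7 highest members were all upstream, rpl-31 by its inner start. At ranks 408 to 1000 none of 10 members was upstream (63.6% of all genes), and at ranks 1001 to 3000 it was 5 of 21 (56.1% of all genes). Among the strongest 407 peaks of replicate 1, however, 7 of 17 members were upstream (41.2%, against 69.0% of all genes), and among those of replicate 2 it was 8 of 21 (38.1%, against 61.3%). Over ranks 408 to 3000 the pooled list gave 5 of 31 (16.1%) against 58.2%, and 24 of the 31 summits were inside the gene. In replicate 1 the same ranks gave 4 of 23 (17.4%) against 59.2%. In replicate 2 they gave 12 of 24 (50%) against 56.4%. There it was 9 of 12 (75%, against 62.6%) at ranks 408 to 1000 and 3 of 12 (25%, against 54.4%) at ranks 1001 to 3000. At ranks 3001 to 30000 replicate 2 gave 6 of 25 (24.0%) against 46.4%. The downstream excess over all members was thus seen in each replicate, while its place in the ranking differed between the lists.

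By subunit, 21 of 45 large subunit summits were upstream (46.7%, median 89 bp downstream) and 7 of 28 small subunit summits (25%, median 133 bp downstream). In replicate 1 the shares were 40.9% and 35.7%. In replicate 2 they were 35% and 40%, so the order of the subunits turned between the replicates. The mean GC content of 201 bp around the summit was 40.8% for upstream and 44.1% for downstream member summits, against 39.6% and 41.6% over all genes. Its part in the positions was not tested.

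Ranks in the 2 replicates were more alike for ribosomal protein genes than for genes at large, but the 2 sets differed in strength. Both lists held a summit for 64 members, replicate 1 alone for 8, replicate 2 alone for 6 and neither for 3. Across the 64 members Spearman's rho between the ranks was 0.506, and across the 4216 protein-coding genes with a summit in both lists it was 0.292. These points come from the same 2 libraries and are a description. The median rank of members with a summit was 2183 in replicate 1 and 1066.5 in replicate 2. Over all genes with a summit it was 12360.5 and 12555, and rho was not compared at like ranks. The strongest summits of the 2 lists were within 100 bp of each other at 33 of 64 members (51.6%, against 42.2% of all genes) and more than 200 bp apart at 23, with a median gap of 98.5 bp. They fell on the same side of the start at 44 members (68.8%, against 69.0%). Among the 407 strongest peaks of both replicates were 9 of the 81 members, against 69 of all 19973 protein-coding genes. The 9 were rpl-15, rpl-3, rpl-35, rpl-26, rps-26, rpl-20, rpl-31, rpl-41.2 and rps-25.

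**Figure D5:**
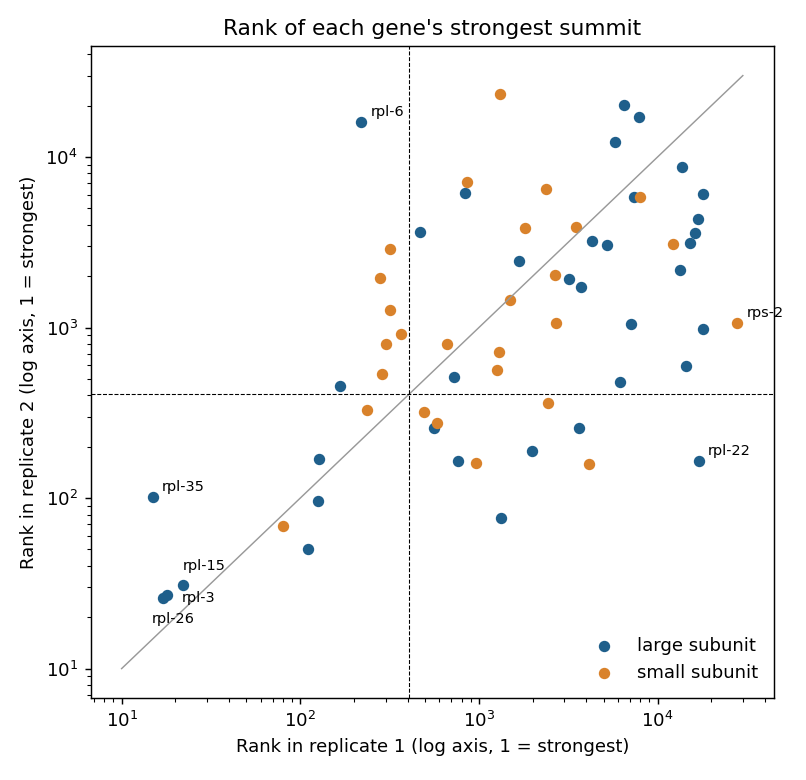
Rank of the strongest summit in replicate 1 against replicate 2 (log axes, 1 is the strongest) for the 64 ribosomal protein genes with a summit in both lists; dashed lines are at rank 407 and the grey line marks equal ranks. The 9 genes in the lower left corner are within the strongest 407 of both replicates, and rpl-6, rpl-22 and rps-2 are far from the line.

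Several members were strong in 1 replicate and weak in the other. rpl-6 stood at rank 220 in replicate 1 and 16136 in replicate 2, with pooled signal 80.5. rpl-22 stood at ranks 17005 and 166, and its summits were 291 bp upstream and 449 bp downstream, so the lists named different peaks. rps-2 stood at ranks 27928 and 1068, and rps-5 at ranks 1314 and 23443. In other genes the side changed between the replicates with less change in rank. For rps-3, whose protein lines the entry of the messenger RNA, the summit was 264 bp downstream in replicate 1 (rank 364) and 224 bp upstream in replicate 2 (rank 920). For rps-20 it was 265 bp downstream (rank 280) and 210 bp upstream (rank 1954), and for rps-28 it was 267 bp downstream (rank 661) and 383 bp upstream (rank 803). In rps-3 and rps-20 the pooled summit was within 2 bp of that of replicate 1.

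The summits of many members also lay near the start of another gene. At 21 of 73 members (28.8%) another protein-coding gene had a start within 500 bp of the same pooled summit. Over all genes with a pooled summit the share was 15.2%, and over short genes with one it was 19.5%. The other gene was on the opposite strand upstream 15 times and on the same strand 6 times. In the 11 cases in which the summit was nearer to the other gene were 5 optimal members. The optimal summit of rps-26 was 22 bp from the start of tmem-107, that of rpl-20 was 167 bp from Y17G9B.5, that of rps-23 was 217 bp from dpm-3 and 317 bp from its own start, and that of rps-19 was 218 bp from hsr-9 and 227 bp from its own. The summit of rps-30, inside the gene, was 345 bp from the start of C26F1.3. The optimal summits of rpl-15 (with K11H12.8, 484 bp away), rpl-26 (with cpf-1, 320 bp away) and rpl-12 (with lin-54, 482 bp away) were nearer to the ribosomal protein gene. For these 8 of the 18 optimal members (44.4%) a summit cannot be given to 1 gene by distance alone. Of all 187 genes called in the optimal set 55 (29.4%) shared their summit, and of the short genes called there 34.7%. The other 10 optimal members, among them rpl-3, rpl-35 and rpl-31, shared it with no other protein-coding gene.

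The remaining 13 shared summits were weaker, with pooled signals from 31.98 to 86.4. Their partners were ndab-2 (rpl-36), Y41D4B.4 (rps-28), xrn-2 (rpl-43), ifet-1 (rps-1), tmem-39 (rps-10), lpd-7 (rpl-9), ints-11 (rpl-10), farl-11 (rpl-33), C14B9.10 (rpl-21), thoc-7 (rpl-29), lsm-1 (rps-9), ify-1 (rpl-22) and nuo-1 (rpl-36.A). Of the 28 upstream summits, 14 lay beside a divergent gene within the window and 14 did not. A divergent start within 1000 bp was present at 48 members, of which 10 were optimal and 16 had an upstream summit. A pooled summit was found at 41 of the 48, with a median signal of 67.3. Of the 33 members with no such start 8 were optimal and 12 had an upstream summit. A pooled summit was found at 32 of the 33, with a median of 63.2. Among members with a pooled summit, a nearby divergent gene thus went with little difference in signal. Most members without a pooled summit had a divergent start within 1000 bp, as did most members with a pooled summit. The share of all protein-coding genes with such a start is not given here.

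Where ribosomal protein genes were neighbours of each other, the summits lay in the genes and not between them. rpl-39 and rps-30 are transcribed away from each other with starts 499 bp apart, and the 1 pooled summit between them had a signal of 47.2 at rank 6990. Their strongest summits were inside the genes, 185 bp downstream of the start of rpl-39 (82.8) and 377 bp downstream of that of rps-30 (107). Between rps-14 and rpl-36, divergent at 663 bp, there was no pooled summit, and their summits were 204 and 344 bp downstream, at 82.7 and 86.4. Between rps-10 and rpl-24.1, divergent at 610 bp, there was none either, with summits 297 and 228 bp downstream, at 65.2 and 36.9.

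Introns of ribosomal protein genes carry genes for small nucleolar RNAs (snoRNAs), which guide the chemical modification of ribosomal RNA, and some of the summits lay beside them. A snoRNA start was within 500 bp of the pooled summit at 10 of 73 members (13.7%), against 0.869% of the 7365 protein-coding genes with a pooled summit. Of these 10 members, 2 host no snoRNA gene. In all 13 of the 81 members, 8 of the large and 5 of the small subunit, had 19 snoRNA genes inside their gene record. Hosting was itself rarer over all genes, at 159 of 19973, and its part in the nearness of summits to snoRNA starts was not tested. Of these hosts 11 had a pooled summit, with a median signal of 80.5, and 4 were optimal, rpl-15, rpl-26, rpl-7 and rps-23. Of the 68 members that host none, 62 had a pooled summit, with a median of 65.1, and 14 were optimal. Among the 146 other protein-coding genes that host a snoRNA gene, 7 were optimal (4.79%) and 96 had a pooled summit (65.8%), so both shares were lower than in the ribosomal protein genes without one.

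The position of the summit along the snoRNA genes varied. At rpl-7 it was 43 bp upstream of the start of the hosted F53G12.12, at rpl-6 it was 21 bp upstream of R151.11, at rpl-26 it was 211 bp upstream of F28C6.11, and at rps-13 it was 23 bp downstream of the start of C16A3.11. At rpl-4, rps-29 and rpl-24.1 it was 112, 171 and 94 bp downstream of the nearest hosted snoRNA start, and at rpl-7A, with a signal of 30.5, it was 43 bp downstream. At rps-26 and rla-1 the nearby snoRNA gene, F39B2.14 and Y37E3.22, was not hosted. The summits of rpl-15 and rps-23, both hosts, were more than 500 bp from any snoRNA start, as were 14 of the 18 optimal member summits. The other 4 optimal members (22.2%) had a snoRNA start that near. In the optimal set the share was 24 of 187 over all genes called (12.8%) and 17.3% over the short genes called. The contrast with genes at large was thus much smaller there than over the whole pooled list. Of the hosts, rpl-2 and rps-12 had no pooled summit.

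Sequence matches around the summits were counted as a description. In the 201 bp around the pooled summit, the GC box core GGGCGG was found on either strand in 1 of 73 members (rpl-25.1, 1.37%), against 6.06% of all protein-coding genes with a summit, and in none of the 18 optimal members against 13.4% of the 187 genes called there. GGGCGGG was in none, against 1.64%; the matches of the shorter core include those of the longer. CCACGCCC was in 2, rpl-35 and rpl-1, against 0.692%, CACCC in 11 (15.1%) against 15.6%, GAGAGA in 15 (20.5%) against 16.2%, CTGCGTCT in 2 (2.74%) against 3.14%, and TATAAA in 9 (12.3%) against 17.0%. TTTCAG, the splice acceptor, was in 31 (42.5%) against 32.7%. In the window from 250 bp before to 50 bp after the start, GGGCGG was in 3 of 81 members (3.70%) against 7.81%, and TTTCAG in 57 (70.4%) against 51.7%. These letters being absent from a window says nothing on whether SPTF-2 was there.

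The counts of the 4 picked elements include the genes they were picked from, so they are also given without the 11 members that have an upstream optimal summit. AGCGTGTT stood in 3 of the 28 upstream member windows of 201 bp, rpl-15, rpl-3 and rpl-35, against 21 of 3665 upstream windows over all genes (0.573%), and in 4 of 81 members over the 500 bp before the start (4.94%), against 1.00%. Without the 11 members it was in none of 17 upstream windows and before 1 of 70 members (rpl-18, 1.43%). Among the 131 genes with an upstream optimal summit it was in 7, which besides these 3 were cdc-48.1, tasp-1, cox-5A and K11H12.8, the last with the summit of rpl-15. CTACGGT stood in 7 of 28 upstream windows (25% against 1.94%) and in the 500 bp before the start of 16 members (19.8% against 2.58%). Without the 11 members the counts were 5 of 17 (29.4%) and 14 of 70 (20%). GGCCTAAA stood in 5 of 28 (17.9% against 0.955%) and in the 500 bp before 22 members (27.2% against 1.65%), among them rpl-35, rpl-26, rps-26 and rps-8. Without the 11 members the counts were 3 of 17 (17.6%) and 17 of 70 (24.3%). GAGTGTA stood in 4 of 28 (14.3% against 2.02%) and before 4 members (4.94% against 3.44%). Without the 11 members it was in 1 window and before 1 member, rps-1 (1.43% of 70). The frequency of CTACGGT and GGCCTAAA was thus kept without the genes they were picked from, and that of AGCGTGTT and GAGTGTA was not. Of the 22 members with GGCCTAAA, rpl-2 and rpl-25.2 had no pooled summit, so the element went with members at both ends of the signal.

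Genes of other parts of the translation machinery did not all stand as the ribosomal protein genes did. Of 70 mitochondrial ribosomal protein genes none was optimal, 32 had a pooled summit (45.7%) and their median signal was 39.3, next to 36.9% and 40.0 over all genes. Of 34 genes for initiation factors none was optimal and 16 had a pooled summit (47.1%, median 41.3). All 6 genes for elongation factors had one, with a median of 63.4, and eef-1A.2 was optimal. Of 20 genes for ribosome assembly and the nucleolus 16 had a pooled summit (80%, median 40.6), and fib-1 and ncl-1 were optimal. Of 8 subunit genes of RNA polymerases I and III 6 had a pooled summit (median 44.9) and none was optimal. In signal the elongation factor genes were the nearest to the cytosolic ribosomal protein genes, whose median was 67.1.

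The members were spread over all 6 chromosomes. Of the 25 members on chromosome I, 8 were optimal (32%, against 1.18% of all protein-coding genes there), and of the 18 on IV it was 6 (33.3%, against 1.13%). On III it was 2 of 18 (against 1.10%), on II 1 of 10 (10%, against 0.986%), on V 1 of 8 (12.5%, against 0.601%) and on X none of 2 (against 0.842%). Nearly all member windows could be told apart from other sequence. Of the 73 windows of 201 bp at pooled summits, 70 held no stretch of 36 bp that occurs elsewhere in the nuclear genome, and the others were rps-24 (66.9% of its stretches unique), rpl-7A (72.3%) and rpl-41.2 (97.6%). The signals of these 3 genes may include reads of other copies.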

How the data were processed

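The deposited files used here are 4 narrowPeak lists on ce11, 1 for each of 2 biological replicates, 1 pooled and 1 optimal. Per the deposited file descriptions, a control alignment entered the call of every list, the pooled list was called on the 2 replicates together, and the optimal list was drawn from the other 3 lists by an IDR (irreproducible discovery rate) threshold. The aligner, caller and settings were not given in the sources used here. Signal values are a score that the authors' caller gave each peak, and summits are deposited as offsets from the first base of the peak. Most pooled peaks (29987 of 30000) were 376 bp wide. Read totals were not analysed here, so depth is unknown and no value has a counting interval.

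Starts came from Ensembl release 115 (protein-coding transcripts), sequence from RefSeq, and snoRNA genes from Ensembl. Each gene took its strongest summit within 500 bp of a start. Python 3.11.15, numpy 2.4.6 and matplotlib 3.10.9 were used, and the assignment of summits to genes was tested on simulated data. No test was run, because the series has 1 group, and genes and peaks are not replicates. The labels do not say whether the replicates came from separate cultures.

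Named genes were the optimal members, the 5 highest and 5 lowest of each subunit, members with no pooled summit, with a shared summit or with a snoRNA gene, paired names and genes at the boundary of the optimal set. Genes named for a disagreement between the replicates, and the 4 elements printed in capitals other than CCACGCCC, were chosen after their values were seen. The members, lists and comparisons were chosen with earlier results of these data known. Alternatives were other windows, the nearest summit, the outermost start, each replicate alone, fewer peaks, other coincidence limits and other motif windows.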

Additional observations from a re-analysis of the deposited data

How the results depend on the processing

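Most results kept their size under the alternatives, and 43 of 70 alternative values stayed within the limits set for a change, which were 1.5 times for counts and shares and the spread between the replicate lists for medians. Of the 27 that moved, 10 came from the motif windows, 7 from the window around starts, 4 from single replicates and 6 from other choices. With 250 bp in place of 500 bp, 8 members had an optimal summit (9.88%, against 0.501% of all genes) and 42 a pooled one (51.9%, against 22.5%), 15 were upstream, 9 shared their summit, 5 had a snoRNA gene nearby, and the median position was 58 bp. The median position was 183.5 bp with 1000 bp, 145 bp with the nearest summit and 174 bp from the outermost start, and 127 to 131.5 bp in the single replicates, always downstream. The stronger 50% of the optimal set held 9 members. Leaving out summits at tRNA, snoRNA or snRNA genes left 14 optimal members.

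From the lists of single replicates, 17 to 21 members were called among the strongest 407. The log2 difference of the subunit medians ran from -0.36 to -0.066, and without replicate 1 it was -0.066. The share upstream among ranks 408 to 3000 ran from 17.4 to 50%, and without replicate 1 it was 50%, an alternative added after seeing the data. Replicate peaks overlapped by 1 bp or more at 50 members, against 33 summits within 100 bp. GGGCGG was in 3.70% of start windows, against 1.37% of summit windows. TTTCAG went from 42.5% of summit windows to 70.4% of start windows and 19.2% with 50 bp either side, TATAAA from 12.3% to 27.2% and 6.85%, and CTGCGTCT from 2.74% to 0 in both. CACCC and GAGAGA fell to 5.48% and 9.59% with 50 bp either side, and CCACGCCC was in no start window. The recount of the picked elements without the 11 members, given above, was also added after seeing the data, and moved AGCGTGTT and, likewise, GAGTGTA to 1.43% of members. The causes were not tested. No paired analysis was possible because the series has 1 group and compares no groups. With 2 replicates, no spread could be given for a single gene beyond its 2 values.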
